A study of Mus musculus with 12 samples.

Results

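The genes described here encode the translation initiation and elongation factors of the mouse. They are the rows of the deposited gene table whose symbol starts with Eif1 to Eif6 or with Eef1 or Eef2, leaving out the 4 eIF2 kinases (symbols starting with Eif2ak), and they number 61 of 16353 genes. The symbols Eif2c1 to Eif2c4 fall under the same rule, but are older names of the 4 Argonaute genes Ago1 to Ago4, whose proteins bind small RNAs, and form a role group of their own. Counts, sums and medians of factors below include these 4 genes unless said otherwise. Of the 61 genes, 60 passed the filter on low values and were tested. The gene left out, Eef1a2, the eEF1A of muscle and nerve, had 1 read in the first tolerized library and 0 reads in the other 11 libraries.

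All libraries were made from CD8 T cells of CBA/J mice that carry the transgenic KB5 T cell receptor, an alloreactive receptor. The cells were sorted from spleen with antibodies against that receptor and CD8, to a purity of 95% by the labels, and messenger RNA was sequenced. The activated group received 10000000 C57BL/6 splenocytes by vein, a donor-specific transfusion that supplies H2b antigens. The tolerized group had this transfusion together with 0.5 mg of anti-CD154 antibody, which blocks the CD40 ligand. The inflamed group had both of these and, in addition, 100 ug of lipopolysaccharide (LPS), a bacterial cell wall component. These 3 groups were collected at 12 h after treatment and are called exposed below. Naive cells came from untreated mice, for which no collection time is labelled. Each group has 3 libraries, which hold 29335723 to 84533097 counted reads. The labels call the libraries independent but name no animals, and what the p-values reflect is the spread among these libraries, part of which may be technical. One sentence of the labelled extraction protocol names cultured embryonic fibroblasts instead of T cells.

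Translation starts when eIF2, carrying the initiator tRNA and GTP, joins the small ribosomal subunit with eIF1, eIF1A, eIF3 and eIF5. The eIF4F complex (the cap-binding protein eIF4E, the scaffold eIF4G and the helicase eIF4A) brings the mRNA, and eIF2B recharges eIF2 with GTP afterwards. Elongation is driven by eEF1A, which delivers aminoacyl-tRNA, and eEF2, which moves the ribosome along. A resting T cell makes little protein, and stimulation through the antigen receptor is known to raise protein synthesis before the first division.

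The promoters of 7 factors are shown, picked after the values were known so that each direction of change appears with and without one motif. Eif4a1, Eif4e, Eif4g1, Eif5a and Eef1e1 were higher in all 3 exposed groups than in naive cells, Eef2k was lower in all 3, and Eif4a2, a close relative of Eif4a1, was lower in tolerized and inflamed cells. Each line gives the 250 bases before one annotated start, 5′ to 3′ in the direction of the gene, from RefSeq (GRCm38.p6). Capitals mark the palindrome CACGTG, the E-box hexamer that Myc and related factors bind. Where a gene had several annotated starts, the first with this hexamer in its window was shown, if there was one. The windows lie at chr11:69672424-69672673, strand minus for Eif4a1, at chr3:138527018-138527267, strand plus for Eif4e, at chr16:20672477-20672726, strand plus for Eif4g1, at chr11:69921387-69921636, strand minus for Eif5a, at chr13:38659029-38659278, strand minus for Eef1e1, at chr7:120842581-120842830, strand plus for Eef2k, and at chr16:23107218-23107467, strand plus for Eif4a2.
Eif4a1: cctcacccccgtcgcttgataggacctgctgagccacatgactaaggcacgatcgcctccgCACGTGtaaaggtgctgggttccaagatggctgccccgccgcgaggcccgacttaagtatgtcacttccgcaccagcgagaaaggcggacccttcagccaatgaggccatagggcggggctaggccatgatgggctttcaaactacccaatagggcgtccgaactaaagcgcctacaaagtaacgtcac
Eif4e: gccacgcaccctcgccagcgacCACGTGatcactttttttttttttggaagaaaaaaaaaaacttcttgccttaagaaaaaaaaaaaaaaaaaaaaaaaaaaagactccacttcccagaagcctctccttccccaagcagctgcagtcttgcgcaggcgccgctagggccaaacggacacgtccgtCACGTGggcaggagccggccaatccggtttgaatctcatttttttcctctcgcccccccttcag
Eif4g1: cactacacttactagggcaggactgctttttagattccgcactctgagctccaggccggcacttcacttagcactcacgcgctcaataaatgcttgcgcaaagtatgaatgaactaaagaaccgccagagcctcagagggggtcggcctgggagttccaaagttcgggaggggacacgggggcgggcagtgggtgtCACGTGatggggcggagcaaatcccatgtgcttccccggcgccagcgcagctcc
Eif5a: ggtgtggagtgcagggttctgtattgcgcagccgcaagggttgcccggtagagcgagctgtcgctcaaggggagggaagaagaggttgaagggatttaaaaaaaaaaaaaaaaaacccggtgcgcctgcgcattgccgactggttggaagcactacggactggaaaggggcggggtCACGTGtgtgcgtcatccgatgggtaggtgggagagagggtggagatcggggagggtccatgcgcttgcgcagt
Eef1e1: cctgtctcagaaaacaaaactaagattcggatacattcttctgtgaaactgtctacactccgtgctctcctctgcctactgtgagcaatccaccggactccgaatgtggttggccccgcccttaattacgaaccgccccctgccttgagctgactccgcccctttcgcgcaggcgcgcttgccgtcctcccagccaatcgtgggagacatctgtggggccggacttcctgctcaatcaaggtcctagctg
Eef2k: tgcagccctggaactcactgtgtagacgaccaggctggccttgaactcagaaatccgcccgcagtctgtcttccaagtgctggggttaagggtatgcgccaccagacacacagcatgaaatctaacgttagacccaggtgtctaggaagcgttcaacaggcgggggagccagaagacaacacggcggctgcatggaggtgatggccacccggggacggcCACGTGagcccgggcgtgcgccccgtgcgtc
Eif4a2: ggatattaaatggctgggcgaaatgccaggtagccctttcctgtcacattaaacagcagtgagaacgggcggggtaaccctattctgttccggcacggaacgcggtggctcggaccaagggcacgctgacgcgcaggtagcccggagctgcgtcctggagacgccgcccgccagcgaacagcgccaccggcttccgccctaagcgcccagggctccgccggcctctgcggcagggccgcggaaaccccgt

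Among the 61 genes, 48 had a RefSeq window, taken here from 250 bases before to 50 bases after the start, and 7 of them had several windows. CACGTG was present in the windows of 12 of 48 factor genes (25%), against 8.09% of all 27025 genes with a window. The 12 genes were Eef2, Eef2k, Eif1b, Eif3a, Eif3f, Eif3k, Eif4a1, Eif4e, Eif4g1, Eif4h, Eif5a and Eif5a2. In the sequences shown it stood at position -189 of Eif4a1, at positions -228 and -64 of Eif4e, at position -54 of Eif4g1, at position -74 of Eif5a and at position -31 of Eef2k, counted from the start, and Eef1e1 and Eif4a2 had none. Eif4g1 had a further match just after its start. The 12 genes with the hexamer had a median log2 change of 1.52 in activated, 1.58 in tolerized and 1.55 in inflamed cells against naive cells, and the 35 tested genes whose windows lack it had medians of 1.29, 1.26 and 1.38. The 35 include the Argonautes Eif2c1, Eif2c3 and Eif2c4, the last of them called lower in each comparison, and the 12 include no Argonaute. The 12 included Eef2k, which was lower in exposed cells, and Eif3f, which was called in no comparison under the scaling used below. Called lower were 1 of the 12 in each comparison, and 1, 2 and 2 of the 35. These are too few to tell whether the hexamer goes with direction. CCGGAAGT, a motif of ETS factors searched on both strands, was in the windows of 8 of 48 genes (16.7%), against 4.31% of all genes. CCAAT was in 15 of 48 (31.2%), against 41.1% of all genes, and TATAAA in 5 of 48 (10.4%), against 15.7%. A run of 8 or more pyrimidines within 30 bases of the start was in 14 of 48 (29.2%), against 25.8% of all genes. The 27025 genes were not limited to genes tested in these cells, so they are an unlike set in that respect. These are matches of letters, and binding was not measured.

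Most translation factors were higher in each exposed group than in naive cells. Levels below are counts per 1000000 reads (CPM) after TMM scaling, a correction for differences in RNA composition, and differences are log2 fold changes of CPM + 1. They were tested with limma in 1 fit over 12499 genes, and a gene was called at a Benjamini-Hochberg adjusted p under 0.05. In activated against naive cells, 47 of the 60 tested factors were higher and 4 lower, where 70.7% of all genes tested were called, 35.3% higher and 35.3% lower. In tolerized against naive cells, 49 were higher and 5 lower, where 73.3% of all genes were called, 37.4% higher and 35.9% lower. In inflamed against naive cells, 48 were higher and 5 lower, where 72.4% of all genes were called, 36.9% higher and 35.5% lower. The median log2 change of the factors was 1.19 in activated, 1.22 in tolerized and 1.36 in inflamed cells, while that of all genes tested was -0.04, -0.01 and -0.01. Of the 56 tested factors other than Argonautes, 46, 48 and 47 were higher and 3, 4 and 4 lower. Their medians were 1.29, 1.29 and 1.4. More than 2-fold and called higher were 35, 35 and 36 factors in the 3 comparisons, against 17%, 19% and 18.7% of all genes. The libraries of the groups did not overlap for 49, 50 and 50 factors that were higher, against 38.1%, 39.7% and 39.5% of all genes, and for 4, 6 and 5 that were lower, against 37.5%, 38.6% and 38.6% of all genes. The 3 comparisons share the same naive libraries and so are not independent of one another. With library sizes alone as the scale, all genes had medians of -0.26, -0.25 and -0.27 and the factors had medians of 0.91, 0.91 and 1.03. A change of scale shifts all genes of a library almost alike. The distance between these medians could therefore hardly change, and it is no check of the result. Of the calls above, 46 higher ones in each comparison and all lower ones were made under each of the 4 scalings tried.

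**Figure D1:**
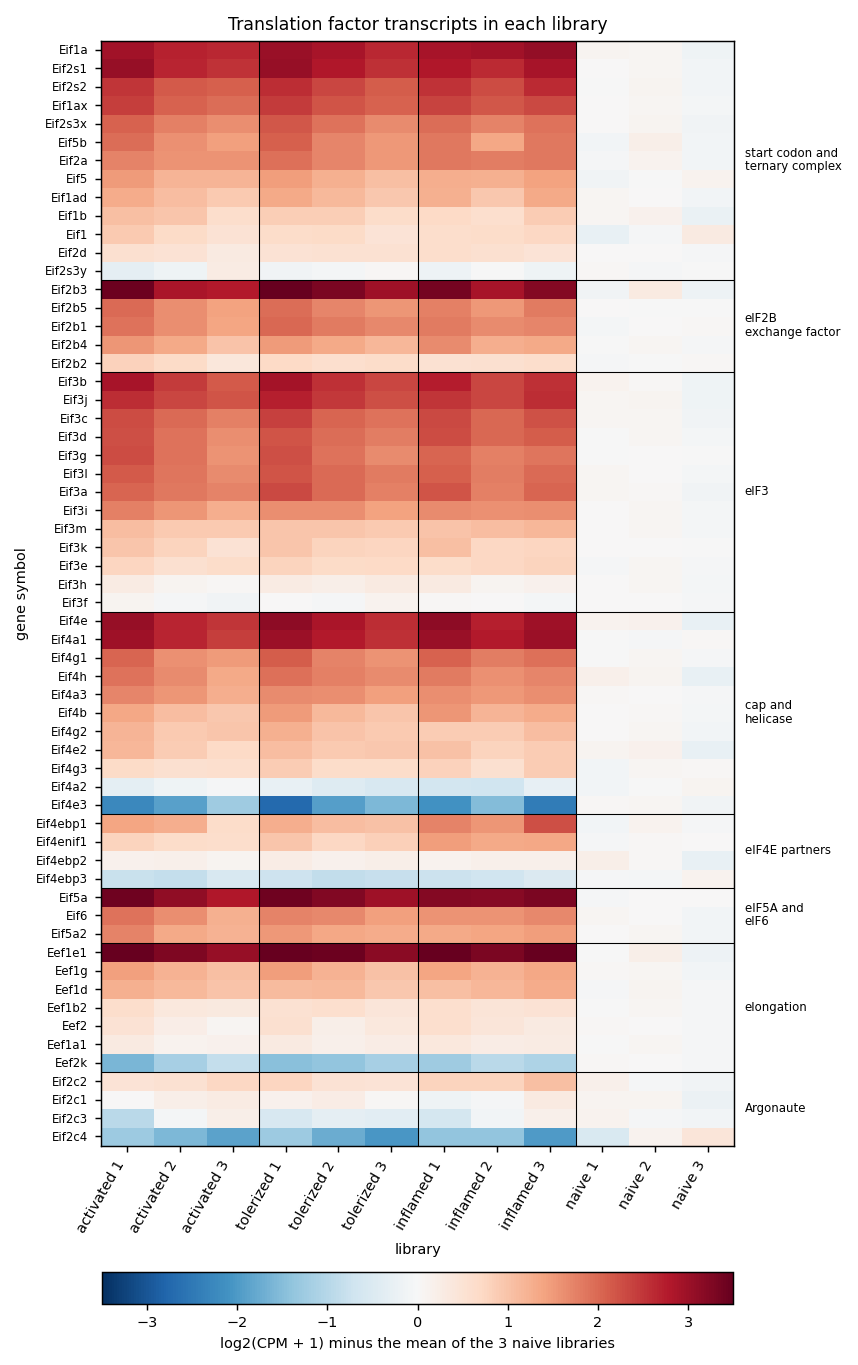
Each row is 1 of the 60 tested genes, grouped by role and ordered within a role by the change in activated cells, and each column is a library. Colour gives log2(CPM + 1) minus the mean of the 3 naive libraries, with the scale ending at 3.5 in either direction. Most rows are red in all 9 exposed libraries, and the rows of Eif4e3, Eef2k, Eif2c4 and Eif4ebp3 stand out in blue.

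The factors together made up 4.33 to 4.94% of counted reads in the 9 exposed libraries, against 3.19 to 3.24% in the 3 naive libraries. On the scaled values their summed level was 47577 ± 5608 CPM in activated, 49584 ± 4856 CPM in tolerized and 51088 ± 2663 CPM in inflamed cells, against 27512 ± 972 CPM in naive cells (SD, n = 3 each). Eef1a1, the gene of the tRNA carrier eEF1A, supplied the largest share of that sum. Without it the sums were 33417 ± 4728, 34895 ± 4366 and 35779 ± 2200 CPM in activated, tolerized and inflamed cells, against 15165 ± 402 CPM in naive cells (SD, n = 3 each).

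Markers of other cells moved between the same groups. The summed level of 8 B cell markers was 113 to 141 CPM in activated, 93.7 to 199 CPM in tolerized and 96.0 to 141 CPM in inflamed libraries, against 392 to 497 CPM in naive libraries, and all 8 were called lower in each exposed group. The 11 monocyte and macrophage markers in the table summed to 51.6 to 650.5 CPM in activated, 39.0 to 123 CPM in tolerized and 7.95 to 395.5 CPM in inflamed libraries, against 679 to 1703 CPM in naive libraries. The 8 erythroid markers summed to 40.1 to 302 CPM, 51.0 to 156 CPM and 19.8 to 123 CPM in activated, tolerized and inflamed libraries, against 997 to 2398 CPM in naive libraries. The 6 neutrophil markers summed to 0.959 to 11.4 CPM in activated, 1.56 to 8.79 CPM in tolerized and 9.61 to 186.5 CPM in inflamed libraries, against 11.6 to 16.7 CPM in naive libraries, and Elane was at 0 reads in activated and tolerized libraries. The 6 dendritic cell markers summed to 14.4 to 32.0 CPM in naive libraries. In activated, tolerized and inflamed libraries they summed to 2.21 to 10.0, 4.18 to 36.7 and 1.61 to 6.85 CPM. Of the 6, 5, 4 and 5 were called lower in these groups. The 5 T cell markers in the table (of Cd3e, Cd3d, Cd3g, Cd8a, Cd8b1 and Trac) were present in every library and summed to 1713 to 2731 CPM in exposed libraries, against 3347 to 4273 CPM in naive libraries. Called lower were 5, 4 and 3 of these T cell markers in activated, tolerized and inflamed cells. So were 6, 10 and 9 of the 11 monocyte and macrophage markers, and all 8 erythroid markers in each group. Of 4 tested neutrophil markers 2, 2 and 1 were lower, and 2 were higher in inflamed cells. Over all genes 35.3%, 35.9% and 35.5% were called lower. The part of the other cells in the results was not tested. In such sorted pools, fewer cells of a type and less RNA per cell cannot be told apart.

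**Figure D2:**
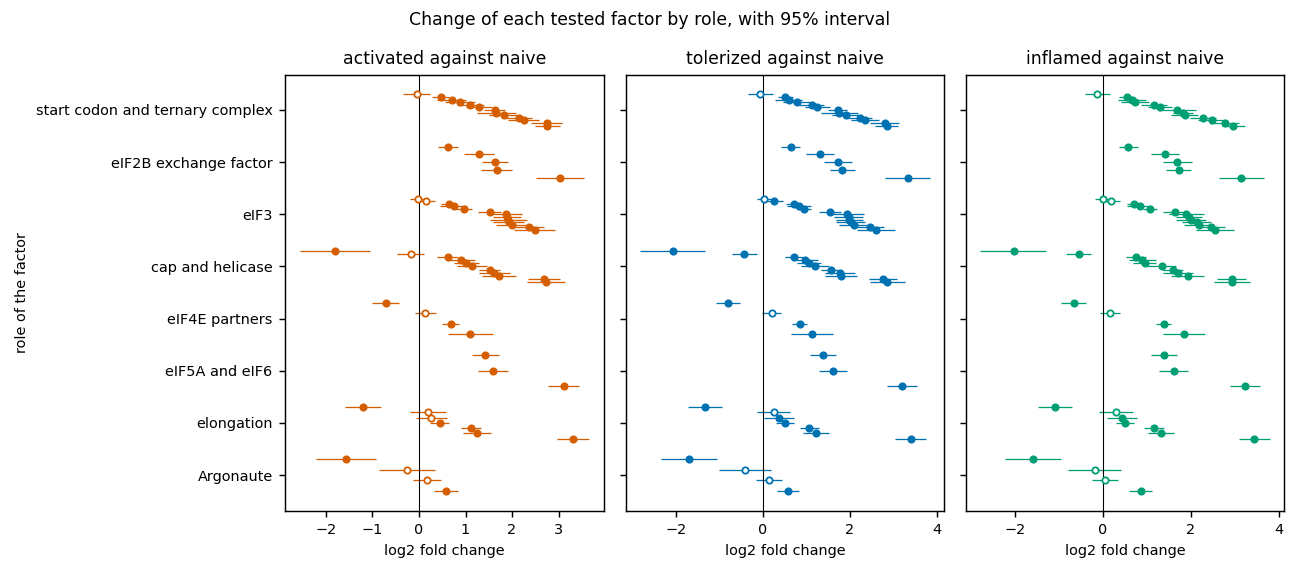
Each point is a tested gene, placed by its log2 fold change against naive cells, with its 95% interval from limma as a line, in activated (left), tolerized (middle) and inflamed cells (right). Filled points were called and open points were not. Every role holds genes above 0, and the genes below 0 lie among the cap and helicase factors, the eIF4E partners, the elongation factors and the Argonautes, apart from uncalled points near 0 in the start codon and eIF3 groups.

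The genes grouped by symbol as start codon and initiator tRNA factors, which include Eif1ad, were higher throughout, with 1 exception. Of these 13 genes, 12 were called higher in each exposed group, with a median log2 change of 1.63 in activated, 1.72 in tolerized and 1.68 in inflamed cells. This count and the counts by role below stand beside 35.3%, 37.4% and 36.9% of all genes called higher. Called lower were 35.3%, 35.9% and 35.5% of all genes. The largest change of the 13 genes was that of Eif1a, at chr18:46597704-46610225, which encodes eIF1A, a factor that keeps the scanning ribosome open. It had 224, 189 and 180 CPM in activated, 236, 217 and 182 CPM in tolerized, and 214, 223 and 246 CPM in inflamed libraries, against 30.1, 29.9 and 25.2 CPM in naive libraries. Every exposed library lay far above every naive one. The log2 changes were 2.76, 2.85 and 2.96 ± 0.12 (SE), with limma adjusted p-values of 9.65e-08, 5.01e-08 and 4.05e-08.

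Eif1ax, the X-linked gene of a closely related protein, changed less, by 2.15, 2.24 and 2.28. The ratio of Eif1a to Eif1ax per length of exon was 0.392 to 0.465 in exposed libraries, against 0.256 to 0.288 in naive libraries. Eif2s1 and Eif2s2, the genes of the alpha and beta subunits of eIF2, changed by 2.75, 2.81 and 2.77 and by 2.25, 2.35 and 2.48. The smallest called changes of the group were those of Eif2d, a factor that can bring tRNA to the ribosome without eIF2, at 0.46, 0.52 and 0.55.

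The gamma subunit of eIF2 has an X-linked and a Y-linked gene in the mouse, and these differed. Eif2s3x had 639, 521 and 470 CPM in activated, 684, 566 and 484 CPM in tolerized, and 587, 510 and 570 CPM in inflamed libraries, against 155, 163 and 140 CPM in naive libraries. Eif2s3y had 68.9, 76.7 and 105 CPM in activated, 78.1, 81.0 and 87.1 CPM in tolerized, and 75.3, 83.6 and 76.2 CPM in inflamed libraries, against 87.4, 83.4 and 84.9 CPM in naive libraries. The exposed and naive libraries overlapped for Eif2s3y and not for Eif2s3x. The log2 changes of Eif2s3y were -0.05, -0.06 and -0.12 ± 0.13 (SE), with limma adjusted p-values of 0.742, 0.716 and 0.423. Without the third activated library the change in activated cells was -0.23 and was called, and the change in inflamed cells was called at -0.45 with library size and at -0.33 with upper-quartile scaling. Per length of exon, Eif2s3x stood at 2.21 to 4.58 times Eif2s3y in exposed libraries, against 0.811 to 0.962 times in naive libraries.

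All 5 subunits of eIF2B, which exchanges GDP for GTP on eIF2, were higher in each exposed group. Eif2b3, at chr4:117019399-117086852, the gene of the gamma subunit, had 336, 226 and 213 CPM in activated, 414, 302 and 243 CPM in tolerized, and 313, 230 and 290 CPM in inflamed libraries, against 27.3, 37.9 and 26.3 CPM in naive libraries. The lowest exposed library was several times the highest naive library. Its log2 changes were 3.03, 3.33 and 3.15 ± 0.23 (SE), with limma adjusted p-values of 1.22e-06, 5.6e-07 and 7.79e-07. The other subunits changed less, down to 0.63, 0.64 and 0.58 for Eif2b2, the gene of the beta subunit. Per length of exon, Eif2b3 was the lowest of the 5 subunits in all 3 naive libraries and the highest in 6 of the 9 exposed libraries.

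The 13 subunits of eIF3, the largest initiation factor, fell into a group with large changes and a group with small ones. In activated, tolerized and inflamed cells 11, 12 and 11 subunits were called higher, and none was lower. Eif3b, at chr5:140419305-140443358, the gene of a core subunit, had 1094, 806 and 654 CPM in activated, 1128, 876 and 753 CPM in tolerized, and 993, 755.5 and 876 CPM in inflamed libraries, against 160, 151 and 134 CPM in naive libraries. Its log2 changes were 2.49, 2.61 and 2.55 ± 0.20 (SE), with limma adjusted p-values of 1.52e-06, 9.3e-07 and 1.06e-06. Eif3j, Eif3c, Eif3d, Eif3g, Eif3l, Eif3a and Eif3i had log2 changes from 1.52 to 2.48 over the 3 comparisons. Eif3m, Eif3k and Eif3e had changes from 0.64 to 1.08.

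Eif3f and Eif3h, which encode the pair of MPN-domain subunits of eIF3, stayed near their naive level. Eif3f, at chr7:108934415-108941942, had 353, 316 and 299 CPM in activated, 333, 317 and 354 CPM in tolerized, and 335, 333 and 315 CPM in inflamed libraries, against 333, 331 and 319 CPM in naive libraries. The groups overlapped fully, and the log2 changes were -0.03, 0.03 and 0.00 ± 0.08 (SE), with limma adjusted p-values of 0.781, 0.739 and 0.997. Scaling by library size or by upper quartile put Eif3f below its naive level in all 3 groups. The change in activated cells was called lower with both, at -0.30 and -0.23. That in inflamed cells was also called lower with both, at -0.33 and -0.21. In tolerized cells it was called lower with library size scaling, at -0.28. Eif3h changed by 0.14, 0.27 and 0.19 ± 0.09 (SE), and of these only the change in tolerized cells was called (limma adjusted p = 0.0186), a call that was lost under each of the other scalings and without the third naive or the third tolerized library. The change in inflamed cells was called without the first activated or the second inflamed library.

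The subunits of eIF3 became more alike in level. Per kilobase of exon, the highest subunit stood at 2.32 to 3.03 times the lowest in the 9 exposed libraries, against 11.4 to 12.4 times in the 3 naive libraries. The SD of the 13 log2 levels was 0.347 to 0.386 in exposed libraries, against 0.974 to 1.03 in naive libraries. Eif3j was the lowest in all 12 libraries, and Eif3h was the highest in the 3 naive libraries, where its mean was 294 CPM per kilobase. The 3 subunits of eIF2 (Eif2s1, Eif2s2 and Eif2s3x) showed the same order of spreads, with 1.2 to 1.44 times between highest and lowest in exposed libraries, against 2.06 to 2.14 times in naive libraries. For eIF2B the spread was 1.57 to 2.43 times in exposed libraries, against 2.72 to 4.12 times in naive libraries.

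**Figure D3:**
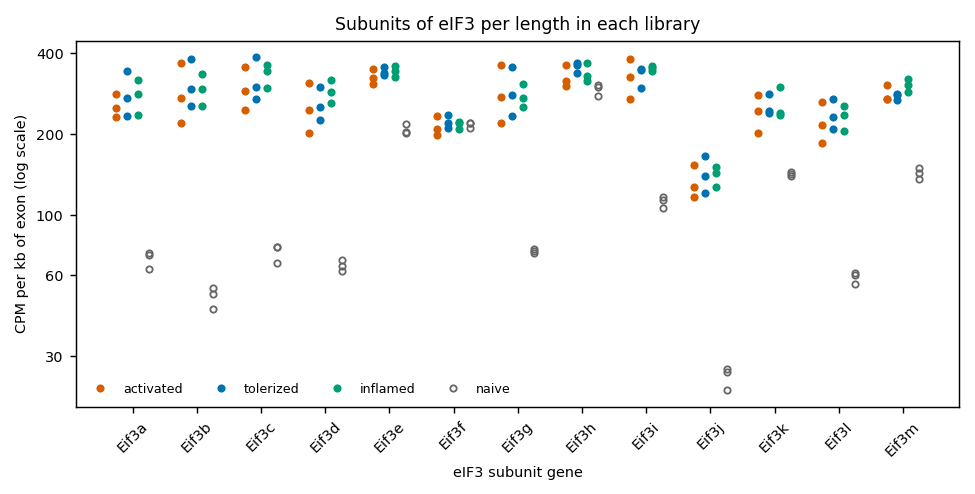
Each point is the level of an eIF3 subunit gene in 1 library, in CPM per kilobase of exon on a log scale, with filled points for activated, tolerized and inflamed libraries and open points for naive libraries. The open points spread over 11.4 to 12.4 times from lowest to highest subunit and the filled points over 2.32 to 3.03 times, and Eif3f is the subunit whose open and filled points coincide.

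Among the genes grouped by symbol as cap and helicase factors, which include Eif4a3, 9 of 11 were higher in each exposed group. The cap-binding protein gene Eif4e, at chr3:138526191-138559696, had 435, 335 and 299 CPM in activated, 467, 381.5 and 319 CPM in tolerized, and 463, 346 and 415.5 CPM in inflamed libraries, against 56.9, 57.4 and 43 CPM in naive libraries. Its log2 changes were 2.74, 2.86 and 2.94 ± 0.18 (SE), with limma adjusted p-values of 5.93e-07, 3.64e-07 and 3.01e-07. The scaffold genes Eif4g1, Eif4g2 and Eif4g3 changed by unlike amounts. Eif4g1 changed by 1.71, 1.80 and 1.93, Eif4g2, whose product lacks the eIF4E-binding part, by 1.02, 1.05 and 0.95, and Eif4g3 by 0.62, 0.72 and 0.75. Eif4b and Eif4h, whose products stimulate the helicase, changed by 1.13, 1.20 and 1.34 and by 1.62, 1.78 and 1.70.

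The helicase genes Eif4a1 and Eif4a2, which encode closely related forms of eIF4A, moved apart. Eif4a1, at chr11:69666936-69672423, had 3140, 2515 and 2142 CPM in activated, 3144, 2705 and 2358 CPM in tolerized, and 3229, 2739 and 3145 CPM in inflamed libraries, against 394, 390 and 409 CPM in naive libraries. Eif4a2, at chr16:23107468-23114132, had 743, 837 and 911 CPM in activated, 779, 686 and 637 CPM in tolerized, and 599, 578 and 767 CPM in inflamed libraries, against 870, 936 and 1010 CPM in naive libraries. For Eif4a1 no exposed library came near a naive one, while for Eif4a2 the tolerized and inflamed libraries lay below all naive libraries and the activated libraries overlapped with them.

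The log2 changes of Eif4a1 were 2.69, 2.77 and 2.93 ± 0.15 (SE), with limma adjusted p-values of 2.26e-07, 1.53e-07 and 1.12e-07. Those of Eif4a2 were -0.18, -0.42 and -0.54 ± 0.13 (SE), with limma adjusted p-values of 0.232, 0.0123 and 0.00309. The change in activated cells was -0.46 with library size scaling and -0.38 with upper-quartile scaling, and was called lower with both. The per-length ratio of Eif4a1 to Eif4a2 was 3.97 to 9.1 in exposed libraries, against 0.683 to 0.765 in naive libraries, so Eif4a2 was the higher of the pair in naive cells and Eif4a1 in exposed cells. Eif4a1 has 3 near copies in the annotation, and the exons of Eif4a2 overlap Rfc4 on the opposite strand. How the counting treated such reads is not stated.

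Eif4e3, a relative of Eif4e at chr6:99621879-99692873, was lower. It had 4.43, 5.92 and 9.84 CPM in activated, 2.96, 5.80 and 7.77 CPM in tolerized, and 4.98, 8.08 and 3.73 CPM in inflamed libraries, against 25.9, 26 and 23 CPM in naive libraries. Every exposed library was below every naive library. Its exons overlap another coding gene on the same strand in the annotation, so its counts may not be its own. The log2 changes were -1.81, -2.07 and -2.03 ± 0.34 (SE), with limma adjusted p-values of 0.000801, 0.000283 and 0.000321. Per length of exon, Eif4e stood at 26.5 to 137 times Eif4e3 in exposed libraries, against 1.63 to 1.92 times in naive libraries. Eif4e2, a further relative that binds the cap without eIF4G, was called higher by 0.91, 0.98 and 0.90.

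**Figure D4:**
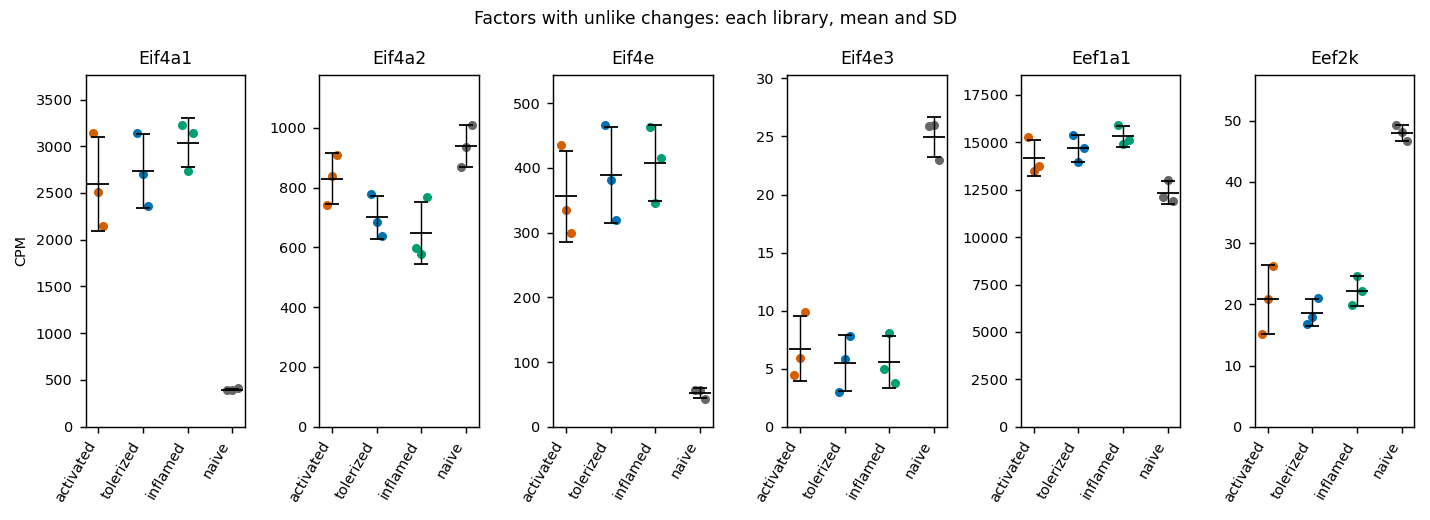
Each point is a library, with the mean and SD of the 3 libraries of a group as bars, in CPM on a linear axis that starts at 0 in every panel. Eif4a1 and Eif4e are high and Eif4e3 and Eef2k low in all exposed groups, Eif4a2 lies at or under its naive level, and Eef1a1 is of similar height in all 4 groups.

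The proteins that bind eIF4E outside the eIF4F complex did not move as a group. Eif4ebp1, Eif4ebp2 and Eif4ebp3 encode repressors that hold eIF4E away from eIF4G until they are phosphorylated through mTOR. Eif4ebp1 had 19.6, 17.9 and 11.3 CPM in activated, 18.0, 15.7 and 15.1 CPM in tolerized, and 25.4, 22.2 and 36.4 CPM in inflamed libraries, against 6.40, 7.68 and 6.66 CPM in naive libraries. Its log2 changes were 1.10, 1.13 and 1.85 ± 0.22 (SE), with limma adjusted p-values of 0.00116, 0.000855 and 2.59e-05. Eif4ebp2, the most abundant of the 3 in every group per length, had 129, 132 and 125 CPM in activated, 139, 130 and 135 CPM in tolerized, and 126, 131 and 132 CPM in inflamed libraries, against 136, 120 and 97.4 CPM in naive libraries. Its groups overlapped, and none of its 3 changes was called (limma adjusted p = 0.242, 0.0948 and 0.196), though all 3 were called without the first naive library, at 0.25, 0.31 and 0.26.

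Eif4ebp3 had 9.25, 8.87 and 10.9 CPM in activated, 9.57, 8.64 and 8.97 CPM in tolerized, and 9.30, 9.76 and 11.3 CPM in inflamed libraries, against 15.9, 15.7 and 17.9 CPM in naive libraries. All exposed libraries lay below the naive ones. It was called lower, by -0.72, -0.80 and -0.66 ± 0.13 (SE; limma adjusted p = 0.00054, 0.000227 and 0.000818), and it has the same kind of overlap with another coding gene as Eif4e3. Eif4e stood at 1.47 to 2.27 times Eif4ebp2 per length in exposed libraries, against 0.26 to 0.296 times in naive libraries. The abundance of mRNA says nothing here of the phosphorylation of these proteins, which was not measured.

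Eif5a, at chr11:69916712-69921958, encodes the hypusine-containing factor that helps ribosomes through stretches such as polyproline. It had 2853, 2328 and 1873 CPM in activated, 2834, 2563 and 2098 CPM in tolerized, and 2496, 2436 and 2636 CPM in inflamed libraries, against 260, 273 and 272 CPM in naive libraries. Its log2 changes were 3.11, 3.2 and 3.23 ± 0.15 (SE), with limma adjusted p-values of 1.14e-07, 8.37e-08 and 7.28e-08. By mean level per kilobase of exon it ranked 2, 2 and 3 among the 61 genes in activated, tolerized and inflamed cells, against 11 in naive cells. Its relative Eif5a2 was called higher by 1.43, 1.38 and 1.39, and Eif6, which keeps the large ribosomal subunit apart, by 1.59, 1.62 and 1.61.

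Among the elongation factors, which include the most abundant members, Eef1a1 and Eef2 had the smallest changes, Eef1e1 had the largest, and Eef2k was the one called lower. Eef1a1, at chr9:78478453-78481724, had 15259, 13464 and 13756 CPM in activated, 15381, 13976 and 14712 CPM in tolerized, and 15920, 14895 and 15111 CPM in inflamed libraries, against 12123, 13020 and 11896 CPM in naive libraries. The exposed libraries lay above the naive ones, but the log2 changes of 0.20, 0.25 and 0.31 ± 0.17 (SE) were not called (limma adjusted p = 0.328, 0.214 and 0.13). All 3 were called higher, at the same size, with limma-voom and with a filter at a mean of 5 CPM, while library size scaling gave -0.08, -0.06 and -0.02, none of them called. As a share of counted reads, with no scaling, Eef1a1 stood at 1.33 to 1.45% in exposed libraries, against 1.41 to 1.48% in naive libraries. Eef1a1 has 7 near copies in the annotation, more than any other member.

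Eef2, the gene of the translocase, changed by 0.27, 0.37 and 0.44 ± 0.15 (SE), with limma adjusted p-values of 0.141, 0.0459 and 0.0235. Both calls were lost under each of the other scalings, and without naive library 2 or 3. The call in tolerized cells was also lost without naive library 1, tolerized library 1 or 3 or activated library 2, and that in inflamed cells without inflamed library 1. Eef1b2, Eef1d (which also overlaps a coding gene on its strand) and Eef1g, whose products recharge eEF1A with GTP, were called higher in each exposed group, by 0.44 to 0.52, by 1.07 to 1.17 and by 1.23 to 1.32. Eef1b2 was not called in activated cells with upper-quartile scaling.

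Eef1e1, at chr13:38645691-38659028, had the largest change of all 60 tested genes in each comparison with naive cells. Despite its name, its product is a small protein of the complex that holds several aminoacyl-tRNA synthetases together. It had 216, 171 and 147 CPM in activated, 217, 192 and 159 CPM in tolerized, and 205, 173 and 202 CPM in inflamed libraries, against 16.6, 19.4 and 14.8 CPM in naive libraries. The log2 changes were 3.31, 3.40 and 3.44 ± 0.16 (SE), with limma adjusted p-values of 1.14e-07, 8.19e-08 and 7.02e-08.

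Eef2k, at chr7:120842642-120907219, encodes the kinase that phosphorylates and slows eEF2, and was lower. It had 15.1, 20.9 and 26.3 CPM in activated, 16.8, 17.9 and 21.1 CPM in tolerized, and 19.8, 24.6 and 22.2 CPM in inflamed libraries, against 49.3, 48.1 and 46.7 CPM in naive libraries. No exposed library reached a naive one. Its log2 changes were -1.20, -1.33 and -1.08 ± 0.17 (SE), with limma adjusted p-values of 0.000139, 5.78e-05 and 0.000244. Per length of exon, Eef2 stood at 332 to 769 times Eef2k in exposed libraries, against 171 to 173 times in naive libraries.

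The 4 Argonautes showed no common direction. Eif2c2 (Ago2, the Argonaute that can cut its target RNA) had 216, 224 and 254.5 CPM in activated, 259, 220 and 213 CPM in tolerized, and 262, 263 and 317 CPM in inflamed libraries, against 172, 150 and 140 CPM in naive libraries. It was called higher, by 0.59, 0.58 and 0.86 ± 0.12 (SE; limma adjusted p = 0.00111, 0.00108 and 6.81e-05). Eif2c1 (Ago1), at 110 to 157 CPM in all 12 libraries, and Eif2c3 (Ago3), at 14.3 to 32.5 CPM, were called in none of the 3 comparisons. Eif2c3 was called lower in tolerized cells at -0.71 with library size scaling, at -0.63 with upper-quartile scaling and at -0.41 in a fit of the 2 groups alone. Eif2c4 (Ago4) was called lower in all 3, by -1.57, -1.69 and -1.59, at 0.0582 to 0.828 CPM in exposed libraries, against 2.0 to 4.88 CPM in naive libraries.

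The genes with the smallest changes included several known from human cells to carry a terminal oligopyrimidine tract, a start sequence through which mTOR controls translation of the mRNA. A list of 10 such genes (Eef1a1, Eef1b2, Eef1d, Eef1g, Eef2, Eif3a, Eif3e, Eif3f, Eif3h and Eif4b) was drawn up after the values had been seen, so it is described without a test. Their median log2 change was 0.54 in activated, 0.62 in tolerized and 0.61 in inflamed cells against naive cells. The other 46 tested factors, Argonautes left out, had medians of 1.55, 1.59 and 1.66. The list was not uniform: Eif3a changed by 1.88, 2.02 and 2.0, and Eef1g, Eif4b and Eef1d were also over 2-fold higher in each exposed group. Called higher were 6, 8 and 7 of the 10, against 35.3%, 37.4% and 36.9% of all genes.

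Between the exposed groups the translation factors differed little. In tolerized against activated cells none of the 60 was called, and neither was any of the 12499 genes (0%; smallest limma adjusted p = 0.957, with 531 genes at an unadjusted p under 0.05, none of them a translation factor). Without the first tolerized library 59 genes were called higher and 1 lower over the whole table, and again no factor. The median log2 difference of the factors was 0.06, no factor had libraries without overlap (4.22% of all genes did in the higher and 2.45% in the lower direction), and the 95% interval of the difference lay within 2-fold in either direction for 59 of 60. The deviations of same-numbered libraries of these groups were positively correlated, and with the replicate number as a block the count of called factors was again 0.

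In inflamed against tolerized cells 1 factor was called higher and none lower, where 2.78% of all genes were called, 1.66% higher and 1.12% lower. In inflamed against activated cells the same gene was called higher and none was lower, where 1.92% of all genes were called, 1.54% higher and 0.384% lower. These comparisons share the inflamed libraries. The gene was Eif4enif1, at chr11:3202343-3244588, which encodes 4E-T, a protein that takes eIF4E into the nucleus and into cytoplasmic bodies where mRNA is stored and decays. It had 244, 221 and 223 CPM in inflamed libraries, 173, 146 and 156 CPM in tolerized libraries, 149.5, 136 and 135 CPM in activated libraries and 85.3, 89.1 and 87.3 CPM in naive libraries. All inflamed libraries lay above all tolerized and activated ones, and these above all naive ones.

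The log2 difference of Eif4enif1 was 0.53 ± 0.08 (SE; limma adjusted p = 0.00451) in inflamed against tolerized cells and 0.70 ± 0.08 (SE; limma adjusted p = 0.00136) in inflamed against activated cells. Both calls were made whichever of the 12 libraries was left out. With the replicate number as a block and all libraries in the fit, the limma adjusted p was 0.00234 for inflamed against activated cells. In a blocked fit of those 2 groups alone it was 0.0525, and the call was lost. Against naive cells Eif4enif1 changed by 1.38 in inflamed, 0.85 in tolerized and 0.68 in activated cells. The difference between inflamed and tolerized cells runs beside neutrophil markers, which reached 186.5 CPM in 1 inflamed library as given above, and their part in the result was not tested.

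Eif4ebp1 differed by 0.72 ± 0.22 (SE) in inflamed against tolerized cells and by 0.75 ± 0.22 (SE) in inflamed against activated cells, with no overlap of libraries, but was not called (limma adjusted p = 0.125 and 0.157). Without overlap and higher in inflamed cells were 4 factors in each of these comparisons, against 9.1% and 7.72% of all genes, and lower without overlap were 0, against 9.18% and 5.46% of all genes. The 4 genes were Eif4enif1, Eif4ebp1, Eif2c2 and Eif3m against tolerized cells, and Eif4enif1, Eif4ebp1, Eif2c2 and Eif2a against activated cells. At an unadjusted p under 0.05 there were 3 factors against tolerized and 4 against activated cells, where 14.7% and 10% of all genes were, so the factors were not more often below that value than other genes.

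**Figure D5:**
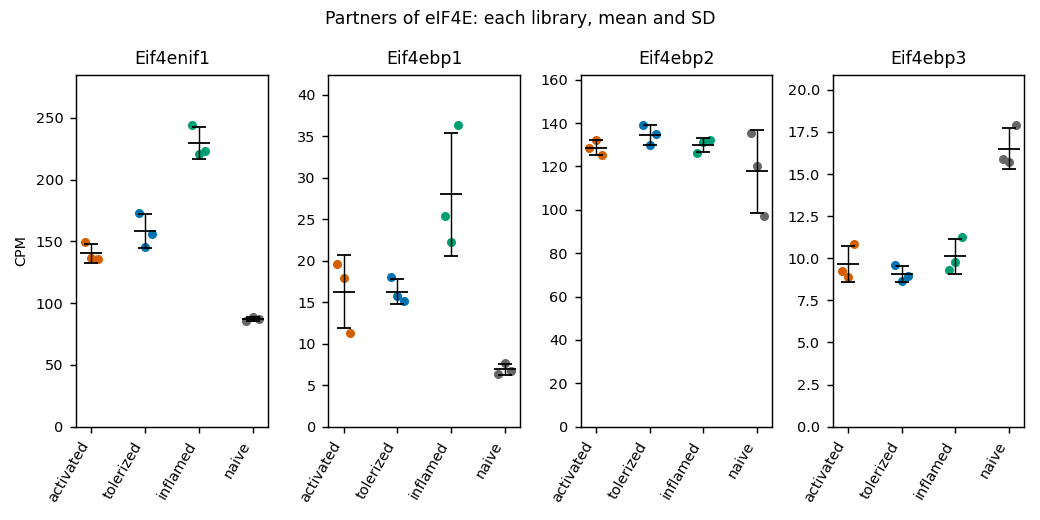
Each point is a library, with the mean and SD of the 3 libraries of a group as bars, in CPM on a linear axis that starts at 0 in every panel. Eif4enif1 and Eif4ebp1 are highest in the inflamed libraries and lowest in the naive ones, Eif4ebp2 is of similar height in all groups, and Eif4ebp3 is highest in the naive libraries.

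Libraries of a group differed in the level of most factors at once. In the first activated library 52 of 60 factors lay above their group mean, against 18 in the second and 8 in the third. In the first tolerized library 53 lay above it, against 17 and 10 in the others. The numbers were 38, 11 and 42 in the inflamed libraries and 35, 50 and 11 in the naive libraries. The median deviation of the factors from the group mean ranged from -0.19 to 0.22 on the log2 scale over all 12 libraries, which is small beside the median change against naive cells.

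Genes that act beside the factors were taken in 6 lists, whose counts stand beside the 35.3%, 37.4% and 36.9% of all genes called higher and the 35.3%, 35.9% and 35.5% called lower in activated, tolerized and inflamed cells against naive cells. Of the 13 termination, recycling and rescue genes, 9 were higher and 3 lower in each exposed group. Etf1, which encodes the release factor that reads stop codons, changed by 2.82, 2.92 and 2.96 in activated, tolerized and inflamed cells against naive cells, and Abce1, whose product splits ribosomes, by 2.27, 2.34 and 2.46. Gtpbp2, whose product acts in the rescue of stalled ribosomes, was lower by -2.10, -2.42 and -2.29. Of the 10 genes of poly(A)-binding and related proteins, 8 were higher in each group, and 2, 1 and 2 were lower. Pabpc4, which encodes a poly(A)-binding protein, changed by 2.63, 2.77 and 2.64, while Paip2, which encodes an inhibitor of such proteins, changed by -1.05, -0.85 and -1.34. Paip2b, the related gene in the list, went the other way and was called higher, by 0.89, 0.84 and 0.91.

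Of the 9 tested genes for enzymes that modify eIF5A, eEF1A and eEF2, 9, 9 and 8 were higher and none was lower. Dhps and Dohh, which make the hypusine of eIF5A, changed by 1.0, 1.02 and 1.14 and by 1.44, 1.47 and 1.53. Of the 13 mitochondrial translation factors 10, 10 and 9 were higher and 1 lower, led by Tufm, the mitochondrial counterpart of eEF1A, at 2.45, 2.55 and 2.57. Gfm2, which acts in mitochondrial ribosome recycling, was the lower one, at -0.93, -0.84 and -0.81.

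Genes of signalling to eIF4F and of the stress response were mixed. Of 17 signalling genes 8 (47.1%) were higher in each exposed group, and 4, 6 and 3 were lower. Larp1, whose product binds oligopyrimidine mRNAs, changed by 2.06, 2.10 and 2.36, and Pdcd4, which encodes an inhibitor of eIF4A, by -1.74, -1.47 and -2.24, while Mtor itself was not called at -0.06, -0.14 and -0.04. Of 17 eIF2 kinase and integrated stress response genes 5, 5 and 9 were higher (29.4%, 29.4% and 52.9%) and 3 lower (17.6%) in each group, so the share higher was under that of all genes in activated and tolerized cells. Atf4, the transcription factor of this response, changed by 1.11, 1.07 and 1.11, and Asns, a known target of it, by 3.05, 3.18 and 3.59, whereas Ddit3, another known target, changed by -0.73, -0.88 and -0.80.

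The eIF2 kinase gene Eif2ak2 was the only gene of the 6 lists called between exposed groups. Its product, PKR, is switched on by double-stranded RNA. It averaged 70.5 ± 14.4 CPM in inflamed cells, against 15.7 ± 9.13 CPM in the tolerized group and 11.4 ± 4.16 CPM in the activated group (SD, n = 3 each). The log2 difference was 2.22 ± 0.35 against tolerized and 2.56 ± 0.35 against activated cells (SE; limma adjusted p = 0.00674 and 0.00389). In naive cells Eif2ak2 averaged 25.1 ± 1.71 CPM (SD, n = 3). Against naive cells it changed by 1.435 in inflamed, -0.79 in tolerized and -1.13 in activated cells (limma adjusted p = 0.00377, 0.0646 and 0.0145). As for Eif4enif1, the part of the neutrophil markers in this was not tested.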

How the data were processed

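The deposited table holds a whole-number read count per gene and library, with the exon length of each gene, per the file headers. It is not stated there how the authors assigned reads to genes, nor whether they used strand. The submitters' processing notes name TopHat2, bedtools and DESeq and the builds mm10 and GRCm38, with no versions or roles given in the sources used here. The counts carry commas between digits, which were removed. Libraries were grouped by their labels, and no sample column was left unused (0). Counts were scaled by TMM (trims of 30% and 5%, factors of 0.897 to 1.22), written in R 4.3.3, and given as CPM or as CPM per kilobase of the deposited exon length. Genes were kept at 0.258 CPM, the value of 10 reads in the median library, in at least 3 libraries and at 15 reads in all.

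Limma 3.58.1 with a trend was fitted to log2(CPM + 1) of 12 libraries and 4 group means. Differences of low genes are understated by the pseudocount of 1. The p-values of limma rest on few residual degrees of freedom, and with 3 libraries against 3 an exact permutation test could not go below 0.1, so none was run. The scripts were tested on simulated data in which far fewer genes changed than here, so that test does not bear on the choice of scaling. Members and lists were chosen with earlier results of these data known. Values in every library are given for the called genes with the largest rise and fall of each role (at 10 CPM or more), for those called nowhere against naive cells, for those that go against their role and for those called between exposed groups. Further genes (such as Eif4a1, Eif2s3x, Eif3h and Eef2) were named beside these after their values had been seen. Alternatives were other scalings, filters, pseudocounts (0.1 and 5), limma-voom, fits of 2 groups alone, the replicate number as a block, and each library left out.

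Gene spans and promoters are from RefSeq (GRCm38.p6). RefSeq starts are not exact to the base, so a pyrimidine run near a start does not class a gene as an oligopyrimidine-tract gene. Near copies (95% identity over at least 50% of the transcript, blastn 2.17.0, GENCODE transcripts) were found for 8 of 61 genes (Eef1a1, Eef1g, Eif4a1, Eif4a3, Eif3e, Eif3h, Eif3m and Eif4ebp3), 10 genes overlap exons of a coding gene on the opposite strand, and 3 (Eef1d, Eif4e3 and Eif4ebp3) on the same strand. Counts of these genes are uncertain to that extent. Amino acid sequences were not used here.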

Additional observations from a re-analysis of the deposited data

How the results depend on the processing

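Directions and calls rested on few choices. Counts of factors higher than in naive cells were 47 to 48 in activated, 47 to 49 in tolerized and 47 to 49 in inflamed cells as each library was left out, and lower ones 4 to 5, 5 to 5 and 5 to 5. The factors higher in inflamed cells remained 1 to 1 against tolerized and 1 to 1 against activated cells, and between tolerized and activated cells there were 0 to 0. In all settings but the 2-fold one, 46 of the higher calls against naive cells were kept in each comparison. Eif2c4 was the lower call not kept, because the filter at a mean of 5 CPM left it untested. The genes that lost a higher call under another scaling were Eef1b2 in activated, Eif3h, Eef2 and Eif1 in tolerized, and Eef2 and Eif1 in inflamed cells. At 2-fold or more, 3 factors were lower in tolerized and 3 in inflamed cells, and 0 were higher in inflamed cells against tolerized or activated cells. Scaling by library size turned Eif3f to -0.28 in tolerized and -0.33 in inflamed cells, and upper-quartile scaling turned it to -0.21 in inflamed cells. Each of these Eif3f changes was called lower. Library size scaling also turned Eif3h to -0.041 in tolerized cells. These scalings moved the median of all genes by over 0.1 (log2), to between -0.27 and -0.17 against naive cells. The cause was not tested. Over the whole table, genes called higher in inflamed cells numbered 106 to 294 against tolerized and 87 to 240 against activated cells as each library was left out, and those called lower 51 to 336 and 20 to 88.

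In tolerized against activated cells the deviations of same-numbered libraries had correlations of 0.19 to 0.60. In inflamed against activated cells these were 0.15 to 0.64. Each other comparison had a negative correlation among its replicates. What the correlations reflect was not tested. With a replicate block in fits of 2 groups alone, 0 factors were higher in inflamed against tolerized cells and 0 in inflamed against activated cells, where Eif4enif1 had limma adjusted p-values of 0.121 and 0.0525. With the block and all libraries the count was 1 in each. Such fits of 6 libraries have few residual degrees of freedom, and over the whole table they called 0 and 68 genes.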
